A study of Homo sapiens with 6 samples.

Results

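The syndecans and glypicans are the main families of heparan sulfate proteoglycans on the cell surface. Syndecans (SDC1 to SDC4) are transmembrane proteins with a short cytoplasmic tail, and glypicans (GPC1 to GPC6) are held in the outer leaflet of the membrane by a lipid (GPI) anchor. Both carry heparan sulfate, a long sulfated sugar chain that binds growth factors, morphogens and matrix proteins and presents them to their receptors. Syndecans also work beside integrins in cell attachment, and glypicans are best known for setting the range and strength of Wnt, Hedgehog, BMP and FGF signals, including in growing bone.

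The members were chosen by gene symbol, and all 10 are listed among the 54308 genes of the deposited table. Values were given for 9 of them. The cells were of the human osteosarcoma line 143B, with 3 biological replicates in each group. They were transfected with either the vector plasmid (vector control, VC) or a CRISPR/Cas9 plasmid directed at CNTNAP4 (CNTNAP4 KO). CNTNAP4 is a neurexin-family membrane protein. The sample labels give 48 h of transfection, whereas the study's methods give a longer incubation with the plasmid before cells were sorted. All 6 libraries came from cells that had been through transfection, and the study's methods describe colonies grown from single sorted cells, so the knockout and differences between clones cannot be told apart. The labels do not say which colony gave which replicate, so the p-values measure the spread between these RNA samples.

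Between 20333 and 21041 genes had a value in a library. The deposited values are log2 signals that the authors had brought to the same distribution in all 6 libraries, so the read depth of a library is unknown, no counting interval can be given, and a gene without a value is an empty cell rather than a measured 0. The linear unit is not given in the sources used here. Among 815 protein-coding genes with a value in a single library, the log2 signal fell by 0.98 for each doubling of the length of the longest transcript, which is how a signal per length behaves, so the levels of different genes are compared below on that footing. CNTNAP4 itself had a log2 signal of -7.18 in VC replicate 3 and no value in the other 5 libraries, so these data do not check the deletion. Of the osteoblast-lineage markers, RUNX2, ALPL, COL1A1, COL1A2 and SPP1 had values in every library, COL1A2 at no more than -4.59, SP7 and BGLAP in some, and IBSP in none. The log2 signal of RUNX2 was 1.30 to 1.38 in VC and 1.36 to 1.69 in KO, and that of SPP1 was 2.37 to 2.55 in VC and 3.69 to 4.37 in KO. For leukocyte markers the summed linear signal was 21.7 to 23.0 in VC and 52.3 to 88.1 in KO, nearly all of it from CD68, with PTPRC at or below -4.35 on the log2 scale. For endothelial markers it was 18.6 to 20.5 in VC and 37.0 to 41.0 in KO, nearly all from TIE1, with PECAM1 at or below -4.64. For epithelial markers it was 3.28 to 3.62 in VC and 1.82 to 2.30 in KO, most of it from EPCAM, with KRT14 without a value. The part of these markers in the results below was not tested.

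The question put to these genes was whether the proteoglycan cores that display heparan sulfate differed between CNTNAP4 KO and VC cells. With all 6 libraries in the fit some did, and in both directions. SDC4 was higher in KO, SDC1, SDC2, GPC4 and GPC6 were lower, and SDC3, GPC1, GPC2 and GPC5 did not pass the test. Of the 9 measured members, 5 therefore had an adjusted p under 0.05 (limma's moderated test across 19306 genes, Benjamini-Hochberg), against 32.9% of all genes tested. The 1 member called higher stood against 13.1% of all tested genes called higher, and the 4 called lower against 19.8% called lower. The median log2 fold change of the 9 members was -0.20, beside -0.13 over all genes tested. With counts this small the shares say little about the family as a whole, and the members are described singly below. Of the 5 calls, only that of GPC6 held in all 13 alternative fits (other settings or 1 library left out). The call of SDC4, the only one higher, held in 8 of 13. Counted by overlap instead, the KO values lay wholly below the VC values for 5 members and wholly above them for 1. Among 17698 genes with 6 values, 36.7% lay wholly below, 22.6% wholly above and 59.3% did either. In these bulk libraries, fewer cells with a transcript and less of it per cell cannot be told apart.

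**Figure D1:**
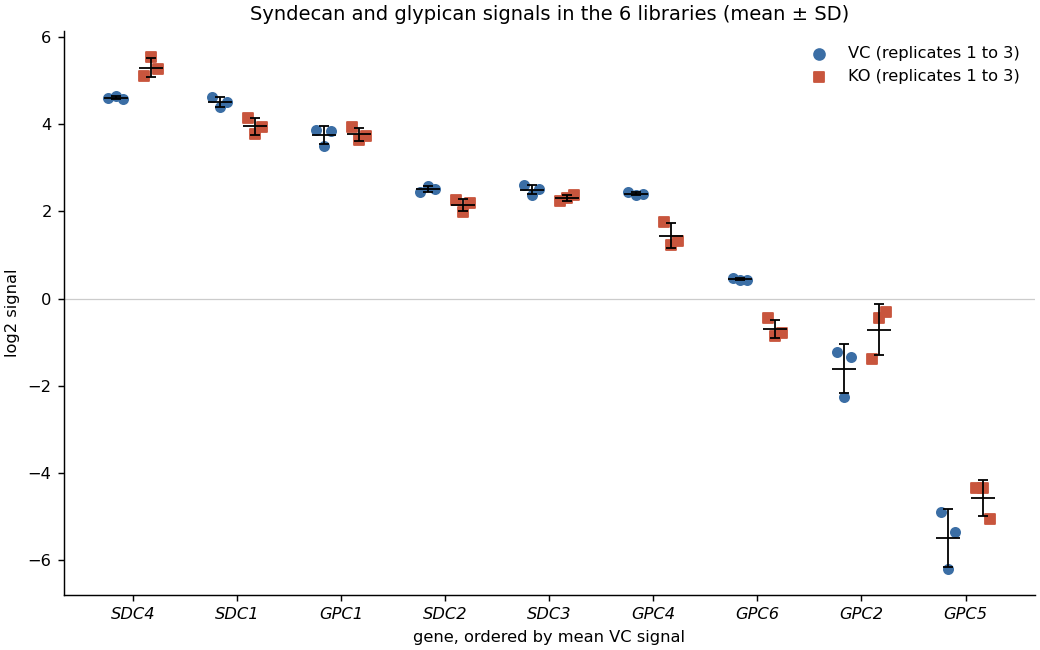
Log2 signal (vertical axis) of the 9 measured genes in each library, VC as circles and KO as squares, with the mean and SD of each group in black. SDC4, SDC1 and GPC1 had the highest signals, the KO squares lie above the VC circles for SDC4, and they lie below them for SDC1, SDC2, GPC4, GPC6 and, by only 0.0046, SDC3.

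In VC cells the highest signals among the members were those of SDC4 (4.61 ± 0.042, SD, n = 3) and SDC1 (4.51 ± 0.12), whose replicates overlapped. GPC1 followed at 3.75 ± 0.20. SDC2 (2.51 ± 0.062), SDC3 (2.50 ± 0.11) and GPC4 (2.41 ± 0.027) came next, and the replicates of SDC3 overlapped those of both SDC2 and GPC4. GPC6 was at 0.44 ± 0.023, GPC2 at -1.61 ± 0.57 and GPC5 at -5.49 ± 0.66. In KO cells SDC4 stood alone at the top at 5.30 ± 0.23, with SDC1 (3.95 ± 0.19) and GPC1 (3.77 ± 0.15) behind it and overlapping each other. GPC2 (-0.71 ± 0.59) and GPC6 (-0.70 ± 0.21) shared a place there. By mean signal SDC4 lay at the 92.8th percentile of genes with a value, SDC1 at the 88.3rd and GPC5 at the 26.2nd.

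SDC4, or syndecan-4, is the widely expressed syndecan of focal adhesions, where it acts with integrins on fibronectin and recruits protein kinase C alpha. Its log2 signal was 4.60, 4.66 and 4.58 in VC replicates 1, 2 and 3. In KO replicates 1, 2 and 3 it was 5.10, 5.55 and 5.26. Every KO library was above every VC library, by at least 0.44, and the KO libraries were spread more widely than the VC libraries. The log2 fold change was 0.69 (standard error 0.13, adjusted p = 0.0190), a 1.61-fold rise with a 95% interval of 1.29 to 2.02. The direction held with each library left out, but the adjusted p was 0.0667, 0.0552 and 0.0689 without VC replicates 1, 2 and 3 and 0.0587 without KO replicate 3. SDC4 lies on chromosome 20. Among the 340 other genes of that chromosome whose mean signal was in the upper 50%, the median log2 fold change was -0.24, 43.5% were called lower and 12.4% were called higher. Its nearest measured neighbors were MATN4 (log2 fold change 1.11, adjusted p = 0.0399) and SYS1 (0.19, adjusted p = 0.215). Over the 6 libraries the genes whose centered signals lay closest to those of SDC4, among 12334 candidates, were CBR4, ADD3 and SPIN3, at root mean square differences of 0.022, 0.032 and 0.032 log2 units.

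The DNA before the SDC4 start site is shown because SDC4 was the member that rose and its upstream sequence held a motif found in no other member window. RefSeq windows (GRCh38.p14) were given for 8 members, SDC1 with 2 of them, and the 250 bases before each start were searched on both strands for the kappa-B consensus of NF-kB, for the GC box GGGCGG, for the AP-1 site TGANTCA and for the TATA box TATAAA. Only the SDC4 window held a kappa-B match, beginning at position -97 from the start site. It also held 8 GC boxes, 1 of them directly after the kappa-B match and some next to each other. Among all 35116 windows, 5.21% held the kappa-B consensus, 42.6% a GC box, 6.57% the AP-1 site and 10.7% the TATA box. No member window held the AP-1 site. In the sequences below, on the gene's own strand, capitals mark matches to these motifs. They are the kappa-B match and GC boxes of SDC4 (chr20:45348425-45348674, minus strand) and the GC boxes of GPC4 (chrX:133415490-133415739, minus strand). In GPC6 (chr13:93226557-93226806, plus strand) they mark the TATAAA match.
SDC4: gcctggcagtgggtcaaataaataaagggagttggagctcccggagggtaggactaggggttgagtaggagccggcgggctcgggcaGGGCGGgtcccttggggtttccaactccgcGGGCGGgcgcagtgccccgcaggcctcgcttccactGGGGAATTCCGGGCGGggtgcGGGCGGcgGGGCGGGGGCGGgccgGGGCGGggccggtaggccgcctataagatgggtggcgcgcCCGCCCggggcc
GPC4: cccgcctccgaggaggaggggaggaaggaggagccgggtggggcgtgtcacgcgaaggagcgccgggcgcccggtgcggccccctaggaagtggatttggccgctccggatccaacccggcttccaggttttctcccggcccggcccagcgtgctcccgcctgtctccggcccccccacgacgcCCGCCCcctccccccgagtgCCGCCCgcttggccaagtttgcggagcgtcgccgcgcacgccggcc
GPC6: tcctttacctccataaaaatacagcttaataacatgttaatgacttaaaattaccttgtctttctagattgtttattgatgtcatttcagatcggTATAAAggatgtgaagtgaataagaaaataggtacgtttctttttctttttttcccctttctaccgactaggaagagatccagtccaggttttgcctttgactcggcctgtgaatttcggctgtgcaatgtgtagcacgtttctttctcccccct
GPC4 and GPC6 are shown with it as the members that fell most. Both windows lacked a kappa-B match, but they differed from each other in base composition, with G or C at 76.0% of the GPC4 positions and 37.6% of the GPC6 positions, against 73.6% for SDC4. The start site used for GPC6 lies inside the span RefSeq gives for the gene, past its first annotated base. The GPC6 window had no GC box and a TATA match at position -155. Among the member windows GPC5 also held a TATA match, at position -242. A match is only a run of letters, and no binding was measured here.

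SDC1, or syndecan-1, is the syndecan best known from epithelia and plasma cells, and it couples to alpha-v integrins. Its log2 signal was 4.63, 4.39 and 4.50 in VC and 4.14, 3.77 and 3.95 in KO replicates 1 to 3. All KO values lay below all VC values, with a gap of 0.25 between the nearest libraries. The log2 fold change was -0.56 (standard error 0.13, adjusted p = 0.0287), a signal 1.47-fold lower in KO. The call did not hold without VC replicate 1 (adjusted p = 0.0895), VC replicate 2 (0.0589), VC replicate 3 (0.0867), KO replicate 2 (0.0531) or KO replicate 3 (0.0813), although the log2 fold change stayed between -0.65 and -0.46. The genes on either side, LAPTM4A (0.077, adjusted p = 0.549) and PUM2 (-0.21, adjusted p = 0.0900), did not pass the test.

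SDC2, or syndecan-2, is the syndecan of mesenchymal cells. It was at 2.45, 2.58 and 2.51 in VC and 2.26, 1.98 and 2.20 in KO, again with no overlap and with KO replicate 2 the lowest. The log2 fold change was -0.37 (standard error 0.099, adjusted p = 0.0414), 22.5% less signal in KO. Chromosome 8, which holds SDC2, had a median log2 fold change of -0.28 over its 403 other genes of the upper 50% by signal, and 45.2% of these were called lower. The part of the chromosome in the result for SDC2 was not tested. With libraries centered on their medians the log2 fold change of SDC2 was -0.28 (adjusted p = 0.0739). Without VC replicates 1, 2 and 3 its adjusted p was 0.0957, 0.107 and 0.115, and without KO replicates 2 and 3 it was 0.0581 and 0.0900.

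SDC3, the syndecan first described in nerve and cartilage, did not pass the test. Its log2 signal was 2.60, 2.38 and 2.52 in VC and 2.24, 2.30 and 2.38 in KO. The groups did not overlap, but only 0.0046 lay between the nearest libraries, and the log2 fold change of -0.20 had a 95% interval of -0.42 to 0.028 (adjusted p = 0.141). Its neighbor LAPTM5 on chromosome 1 did pass, with a log2 fold change of -1.13 (adjusted p = 0.0338).

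**Figure D2:**
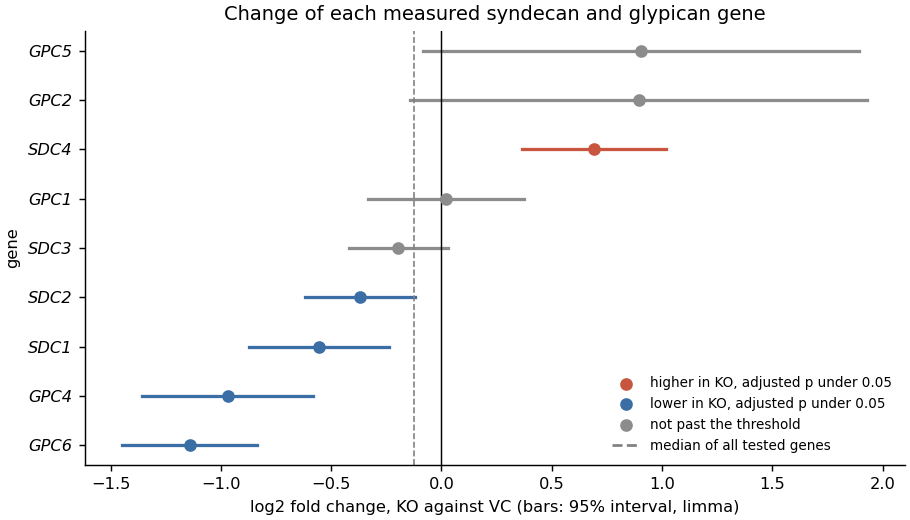
Log2 fold change, KO against VC (horizontal axis), of each measured member with its 95% interval from limma, colored by the call, and a dashed line at the median of all tested genes. GPC6 (-1.14) and GPC4 (-0.97) lie farthest to the left, with intervals that exclude 0. SDC4 (0.69) is the called gene on the right, and the intervals of GPC2 and GPC5 are wide and include 0.

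Among the glypicans, GPC6 had the largest change of any member. It is a glypican of mesenchyme and growth plate, and its loss causes a short-limbed skeletal dysplasia in people. The log2 signal was 0.47, 0.43 and 0.44 in VC and -0.46, -0.85 and -0.79 in KO replicates 1 to 3. The VC libraries were almost level, and the nearest KO library was 0.88 below them. The log2 fold change was -1.14 (standard error 0.12, adjusted p = 0.00856), a signal 2.21-fold lower in KO. Of the 9 members, GPC6 alone kept an adjusted p under 0.05 in all 13 alternatives, with a highest value of 0.0479. The next measured gene after it on chromosome 13, TGDS, went the other way (log2 fold change 0.56, adjusted p = 0.0157), and the median over 205 other well-expressed genes of that chromosome (upper 50% by signal) was -0.12.

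GPC4, a glypican expressed in stem and progenitor cells that can be shed from the surface, was at 2.44, 2.39 and 2.40 in VC and 1.76, 1.23 and 1.32 in KO. The groups were 0.62 apart at the nearest libraries. The log2 fold change was -0.97 (standard error 0.15, adjusted p = 0.0141), and the signal in KO was 48.9% lower. It was called in 11 of 13 alternatives, and missed the threshold without VC replicate 1 (adjusted p = 0.0548) and without VC replicate 3 (0.0561). GPC4 lies next to GPC3 on the X chromosome, where 368 other genes of the upper 50% by signal had a median of -0.10. GPC3, the glypican lost in an overgrowth syndrome and used as a liver tumor antigen, had no value in any of the 6 libraries, so nothing can be said of its level here. MBNL3, on the other side of GPC4, was at -0.37 in log2 fold change and did not pass (adjusted p = 0.0813).

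GPC1, the most abundant glypican here and a co-receptor for FGF2, did not pass the test. Its log2 signal was 3.88, 3.51 and 3.86 in VC and 3.93, 3.63 and 3.74 in KO, so the groups overlapped throughout. The log2 fold change was 0.020 with a 95% interval of -0.33 to 0.37 (adjusted p = 0.921), so a KO to VC ratio anywhere from 0.794 to 1.30 lies within that interval. The sign turned to -0.098 without VC replicate 2 and to -0.061 without KO replicate 1. TMEM44, UNC119 and ENDOV had the centered signals nearest to those of GPC1, at root mean square differences of 0.038, 0.038 and 0.039 log2 units. ANKMY1, the gene after GPC1, was lower in KO (log2 fold change -0.63, adjusted p = 0.0150).

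GPC2 and GPC5 had low signals and wide spreads. GPC2, a glypican of the developing nervous system that is expressed by neuroblastoma, was at -1.23, -2.26 and -1.33 in VC and -1.39, -0.45 and -0.31 in KO, where KO replicate 1 lay among the VC values (log2 fold change 0.89, 95% interval -0.14 to 1.93, adjusted p = 0.146). GAL3ST4, beside it on chromosome 7, was higher in KO (0.85, adjusted p = 0.0182). GPC5, a glypican that is amplified in some rhabdomyosarcomas, was at -4.90, -6.21 and -5.35 in VC and -4.36, -4.34 and -5.06 in KO, with overlap between the groups (log2 fold change 0.90, 95% interval -0.086 to 1.89, adjusted p = 0.129). Its values lay 1.10 to 2.97 log2 units above -7.31, the median of protein-coding genes of 2048 to 4096 bases that had a value in a single library. MIR17HG, the host of the miR-17-92 cluster and the gene before GPC5, was lower in KO (-1.20, adjusted p = 0.0130). The 5 listed antisense transcripts named after GPC3, GPC5 and GPC6 had no value in any library.

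**Figure D3:**
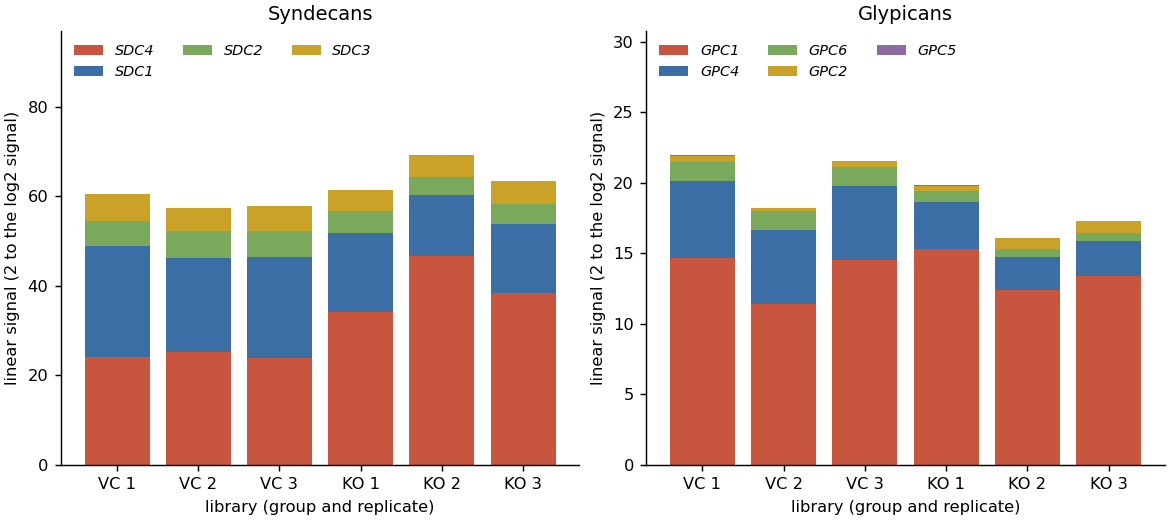
Stacked linear signals (2 raised to the log2 signal, vertical axes starting at 0) of the syndecans (left) and the glypicans (right) in each library. SDC4 makes up 39.9% to 44.0% of the syndecan bars in VC and 55.8% to 67.5% in KO, and GPC1 makes up 62.7% to 67.2% of the glypican bars in VC and 77.0% to 77.3% in KO.

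The makeup of each family is described by the share of each member in the summed signal. The summed linear signal of the 4 syndecans was 60.6, 57.4 and 58.0 in VC replicates 1 to 3 and 61.4, 69.2 and 63.5 in KO replicates 1 to 3. SDC4 supplied 39.9%, 44.0% and 41.2% of that sum in the VC libraries and 55.8%, 67.5% and 60.3% in the KO libraries. The summed signal of the glypicans with a value was 22.0, 18.2 and 21.6 in VC and 19.8, 16.1 and 17.3 in KO, so these sums overlapped. GPC1 supplied 66.9%, 62.7% and 67.2% of the glypican sum in VC and 77.0%, 77.1% and 77.3% in KO. These sums and shares rest on the linear signals as deposited and are given as descriptions, without a test.

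All pairs within a family were also compared by the ratio of their signals within a library. A common factor per library cancels in such a ratio, but quantile normalization can move genes of different level by different amounts, and its part in these ratios was not tested. The log2 ratio of SDC1 to SDC4 was 0.038, -0.27 and -0.080 in VC and -0.96, -1.78 and -1.32 in KO, a difference of -1.25. For SDC2 to SDC4 the difference was -1.06 and for SDC3 to SDC4 it was -0.89, each without overlap between the groups. SDC1 to SDC3 also differed, by -0.36, whereas SDC1 to SDC2 and SDC2 to SDC3 overlapped. Of 6 syndecan pairs, 4 separated the groups (exact permutation test, two-sided p = 0.1 for each, the smallest that 3 against 3 can give, adjusted p = 0.15 over the 6 pairs). Among all pairs of the 17698 genes with 6 values, 53.9% separated the groups in the same way. A pair that holds a called member tends to separate on that account alone. Of the 4 pairs, 3 held SDC4 and the other, SDC1 to SDC3, held SDC1, which was also called.

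**Figure D4:**
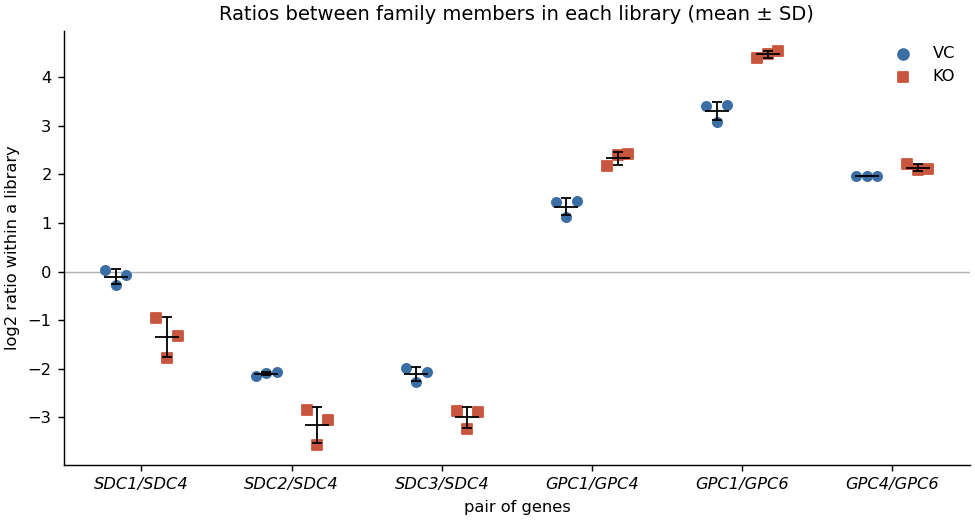
Log2 ratio of 2 family members within each library (vertical axis) for 6 pairs, VC as circles and KO as squares, with the mean and SD. All 3 ratios to SDC4 are lower in the KO libraries, the ratios of GPC1 to GPC4 and to GPC6 are higher, and the ratio of GPC4 to GPC6 differs by only 0.17.

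Of the 10 glypican pairs, 7 separated the groups (exact permutation test, two-sided p = 0.1 for each, adjusted p = 0.143 over the 10 pairs), beside the 53.9% of all gene pairs, and with so few pairs nothing is read from either count. The ratio of GPC1 to GPC6 was 3.41, 3.09 and 3.42 in VC and 4.39, 4.48 and 4.53 in KO, and that of GPC1 to GPC4 was higher in KO by 0.99. GPC4 and GPC6, which lie on different chromosomes, kept nearly the same ratio. It was 1.97, 1.96 and 1.97 in VC, with an SD of 0.0047, and 2.22, 2.08 and 2.11 in KO, so it too separated the groups but by only 0.17. GPC5 and GPC6, which are neighbors on chromosome 13, differed in their ratio by 2.04 between the groups.

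The core proteins carry heparan sulfate only after it has been built and trimmed by other enzymes, and 8 lists of such genes and of partners were described, 102 genes in all, of which 87 were tested. In KO 26 of them were higher and 13 lower, and 44.8% were called, beside 32.9% of all genes. That 32.9%, also set beside the single lists below, takes in genes of low signal. In a fit limited to genes in the upper 50% of mean signal, 55.4% of 12344 genes were called. In that fit 29 genes of the lists were higher and 18 lower. Their median log2 fold change was 0.044. The lists were written with earlier results of these data known, and their counts moved with the libraries used, between 13 (without VC replicate 3) and 29 (without KO replicate 1) higher and between 2 (without VC replicate 1 or 3) and 22 (without KO replicate 1) lower.

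**Figure D5:**
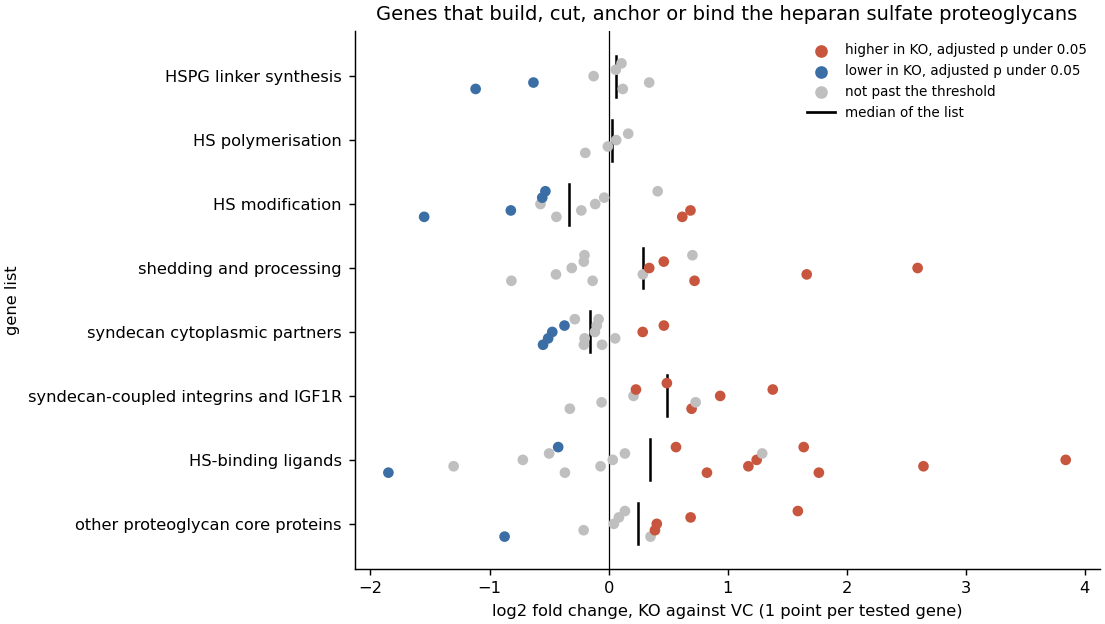
Log2 fold change, KO against VC (horizontal axis), of each tested gene of the 8 lists, 1 point per gene, colored by the call, with the median of each list as a black bar. The medians of the integrin (0.49) and ligand (0.35) lists lie to the right, and that of the heparan sulfate modification list (-0.33) lies to the left.

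Of 7 genes for the linkage between core protein and chain, 28.6% were called, near the 32.9% of all genes. The linkage between core protein and sugar is begun by the xylosyltransferases XYLT1 and XYLT2. XYLT1 was at 0.70, 0.49 and 0.63 in VC and -0.15, -0.66 and -0.72 in KO, with a log2 fold change of -1.12 (adjusted p = 0.0135), while XYLT2 (0.060, adjusted p = 0.557), which had the higher signal, did not pass the test. PXYLP1, the phosphatase that removes the xylose phosphate, was the other of 2 genes called in this list of 7 (-0.63, adjusted p = 0.0210), and neither XYLT1 nor PXYLP1 was called without VC replicate 1 or without VC replicate 3. No gene of this list was called higher by limma, although 1 was higher at an unadjusted p under 0.05 and 1 was called with trend and robust moderation. Of the 4 tested polymerization genes, 0 were called by limma, 1 had an unadjusted p under 0.05 (EXT1, lower), and without variance moderation 1 was called higher and 1 lower. EXT1 and EXT2, which together polymerize heparan sulfate and whose loss causes multiple osteochondromas, had log2 fold changes of -0.20 (adjusted p = 0.0658) and 0.064 (adjusted p = 0.506).

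The list of sulfotransferases, epimerase and sulfatases that pattern the chain had 12 tested genes, with a median of -0.33. In KO 4 were lower, 2 higher and 6 not called, 50% called beside 32.9% of all genes. HS3ST3B1, a 3-O-sulfotransferase, had the largest drop, from 1.53, 1.41 and 1.44 in VC to 0.37, -0.74 and 0.099 in KO (log2 fold change -1.55, adjusted p = 0.0196). Its relative HS3ST3A1 fell by 0.56 (adjusted p = 0.0264) and the 6-O-sulfotransferase HS6ST1 by 0.82 (adjusted p = 0.0367). SULF1 and SULF2 are extracellular sulfatases that take 6-O-sulfate off finished chains, and they went in opposite directions. SULF2, the one with the higher signal, was at 3.52, 3.43 and 3.58 in VC and 3.16, 2.89 and 2.88 in KO (-0.53, adjusted p = 0.0214). SULF1 was at -1.76, -2.12 and -2.07 in VC and -1.47, -1.02 and -1.40 in KO (0.69, adjusted p = 0.0324). Of the N-deacetylase/N-sulfotransferases, NDST2 rose (0.62, adjusted p = 0.0332) and NDST1, with the higher signal, did not pass (-0.11, adjusted p = 0.281). Without VC replicate 1, 2 or 3 or KO replicate 3, 0 genes of this list were called in either direction. Over all single libraries left out, between 0 and 5 genes were called lower and between 0 and 3 higher.

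Of 13 tested genes that cut or release the proteoglycans, 5 were called higher and 0 lower by limma. That share, 38.5%, was near the 32.9% of all genes called. The log2 fold change was positive for 7 of the 13 and negative for 6. At an unadjusted p under 0.05 also 0 were lower, but 3 were called lower without KO replicate 1. MMP9 went from 0.94, 0.44 and 0.88 in VC to 3.03, 3.75 and 3.27 in KO (log2 fold change 2.60, adjusted p = 0.00763), MMP14 rose by 1.66 (adjusted p = 0.0101) and MMP2 by 0.72 (adjusted p = 0.00692). These matrix metalloproteinases can shed syndecan ectodomains, and each was called with any single library left out. ADAM17, another sheddase, rose by 0.46 (adjusted p = 0.0312), and HPSE, the heparanase that cleaves the chain, by 0.34 (adjusted p = 0.0386). ADAM17 was called in 2 and HPSE in 1 of the 6 fits with a library left out, and the list's count of higher genes was 3 without VC replicate 1, 2 or 3. NOTUM, a lipase that can release glypicans from their anchor, did not pass the test (-0.13, adjusted p = 0.636).

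The cytoplasmic tail of the syndecans ends in a PDZ-binding motif. Of 14 tested genes for proteins that bind the tail or act below it, 4 were lower and 2 higher. The share called was 42.9%, beside 32.9% of all genes. For CASK, a scaffold that binds this motif, the change was -0.55 on the log2 scale (adjusted p = 0.0286), for TIAM1, an exchange factor for Rac, -0.51 (adjusted p = 0.0374), for ACTN1, an actin cross-linker, -0.47 (adjusted p = 0.0161) and for SRC -0.37 (adjusted p = 0.0303). PRKCD (0.46, adjusted p = 0.0460) and CTTN (0.29, adjusted p = 0.0339) were higher. SDCBP, or syntenin, which carries syndecans into exosomes, was at 4.51, 4.58 and 4.52 in VC and 4.33, 4.34 and 4.32 in KO. Its groups did not overlap, but the log2 fold change of -0.20 did not pass the test (adjusted p = 0.0587). No gene of this list was called in either direction without VC replicate 1, VC replicate 3 or KO replicate 3. Without VC replicate 2 or KO replicate 2, 0 were called higher and 1 lower. Leaving out KO replicate 1 gave 2 higher and 6 lower.

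In the list of IGF1R and the integrins that syndecans work with, 5 of 9 genes were called higher and 0 lower by limma. Its median was 0.49, and 55.6% were called, beside 32.9% of all genes. With trend and robust moderation 1 was called lower. ITGB3, which pairs with ITGAV in the vitronectin receptor, went from 1.12, 1.22 and 1.14 to 2.26, 2.98 and 2.38 (log2 fold change 1.38, adjusted p = 0.0124), and ITGAV rose by 0.49 (adjusted p = 0.0161). ITGA5, the fibronectin receptor subunit that acts with SDC4, rose by 0.70 (adjusted p = 0.0138), ITGA2, a collagen receptor subunit, by 0.94 (adjusted p = 0.00789) and ITGB1 by 0.23 (adjusted p = 0.0452). IGF1R, which SDC1 couples to alpha-v integrins, did not pass (-0.33, adjusted p = 0.0768), and was the 1 gene lower at an unadjusted p under 0.05. Between 1 and 7 genes of this list were called higher with single libraries left out, the lowest count without VC replicate 1 and without VC replicate 3.

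Of 18 tested genes for proteins that bind heparan sulfate, 8 were higher and 2 lower, 55.6% called beside 32.9% of all genes. Among those in the upper 50% of signals the largest rises were those of CXCL8, a chemokine (log2 fold change 2.64, adjusted p = 0.0117), BMP2 (1.77, adjusted p = 0.00632), VEGFA (1.64, adjusted p = 0.00963) and HBEGF (1.24, adjusted p = 0.0109). FGF1 (-1.85, adjusted p = 0.00834) and FGF2 (-0.42, adjusted p = 0.0390), the ligands most closely tied to heparan sulfate, were the 2 called lower. With single libraries left out the count of higher genes was 7 or 8. The count of lower genes was 1 without VC replicate 1, 2 or 3 or KO replicate 3 and 4 without KO replicate 1, and FGF2 was called in 2 of these 6 fits.

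Of 10 other proteoglycan cores tested, 4 were higher and 1 lower, 50% called beside 32.9% of all genes. The secreted heparan sulfate proteoglycans HSPG2 (perlecan), COL18A1 and AGRN (agrin) were higher with all libraries in the fit. HSPG2 went from 1.61, 1.31 and 1.53 in VC to 2.94, 3.47 and 2.79 in KO (log2 fold change 1.59, adjusted p = 0.0101), COL18A1 rose by 0.69 (adjusted p = 0.0105) and AGRN by 0.39 (adjusted p = 0.0452). NRP1, a co-receptor for VEGF that can carry a glycosaminoglycan chain, rose by 0.40 (adjusted p = 0.0132). HSPG2 and COL18A1 were called in 6 of 6 fits with a library left out, NRP1 in 3 and AGRN in 0, and the list's count of higher genes was 2 without VC replicate 1, VC replicate 3 or KO replicate 3. BGN, or biglycan, a small proteoglycan of bone matrix with chondroitin or dermatan sulfate chains, fell from 4.95, 4.81 and 4.95 to 3.93, 4.14 and 4.01 (log2 fold change -0.87, adjusted p = 0.00815), and was called lower with each library left out. CD44 did not pass the test (0.044, adjusted p = 0.633).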

How the data were processed

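Gene expression was measured by RNA-seq in 3 VC and 3 CNTNAP4 KO libraries, grouped by their labels. The labels name a stranded mRNA kit, and the submitters' processing notes name CASAVA, STAR, Partek and the build GRCh38.p13, whereas the methods name the CLC Genomics programs and Partek Genomics Suite. The annotation and the strand setting are not given in the sources used here. The authors deposited 1 table of log2 signals, which hold the same distribution in each of the 6 libraries after quantile normalization.

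The signals were used as deposited in R 4.3.3 with limma 3.58.1. A linear model was fitted to every gene that had 2 or more values in both groups (19306 genes). Variances were moderated by empirical Bayes, no trend being used, and the two-sided p-values went through Benjamini-Hochberg adjustment over all of these genes. A gene was called at an adjusted p under 0.05. The code was tested on simulated data. Levels in the text are means ± SD of log2 signals, and every fold change is KO against VC. Ratios within a library were compared by exact permutation over libraries.

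The members and lists were chosen with earlier results of these data known. Beside the members and a few fixed genes, the text names up to 4 called genes of each list with the largest change among those without overlap and in the upper 50% of mean signal, measured neighbors in RefSeq order, and the 3 genes closest to the top syndecan and glypican. SRC, CTTN, ITGB1, AGRN, FGF1, FGF2, XYLT2, NOTUM, IGF1R and CD44 were named after their values had been seen. Transcript lengths came from GENCODE release 29 and promoter windows from RefSeq GRCh38.p14, where SDC2 and GPC3 had no entry. Amino acid sequences were not used here, and some marker and neighbor genes are not reported here. Alternatives were the genes tested, median centering, 1 added to the linear signal, trend with robust moderation, no moderation, a replicate block and each library left out.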

Additional observations from a re-analysis of the deposited data

How the results depend on the processing

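All 5 called members kept their direction in every alternative run, and so did SDC3, GPC2 and GPC5, while GPC1 changed sign (from -0.098 to 0.088 with single libraries left out). GPC2 and GPC5 lie below the upper 50% of mean signal and have no value under that restriction. With a replicate block 0 members were called higher and 2 lower, and of the pathway genes 13 were higher and 5 lower, while 7.94% of all genes were called. Under the block the log2 fold changes were unchanged and the adjusted p was 0.0506 for SDC1 (-0.56), 0.110 for SDC2 (-0.37) and 0.0536 for SDC4 (0.69). The deviations of same-numbered VC and KO libraries had correlations across genes of 0.023, 0.0051 and -0.0074. For different numbers they ran from -0.030 to 0.031. These values show no pairing by number, but deviations from means of only 3 libraries cannot exclude one. Without variance moderation 2 members were called lower and 23.0% of all genes were called in either direction, and the adjusted p was 0.0520 for SDC1 (-0.56) and 0.0576 for SDC2 (-0.37). With median-centered libraries SDC2 had -0.28 (adjusted p = 0.0739), and the median of all genes moved from -0.13 to -0.042. With single libraries left out, 0 to 1 members were called higher and 1 to 4 lower, pathway genes were called higher in 13 to 29 and lower in 2 to 22 cases, and 6.57% to 47.0% of all genes were called. The log2 fold changes then ranged from -0.65 to -0.46 for SDC1, -0.42 to -0.29 for SDC2, 0.57 to 0.79 for SDC4, -1.13 to -0.87 for GPC4 and -1.26 to -1.07 for GPC6. The cause of these changes was not tested. Adding 1 to the linear signal moved the median of all genes to -0.023 and called no other members. The depth of the libraries is unknown, which limits what can be said of GPC2, GPC3 and GPC5.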
